A study of Mus musculus with 6 samples.

Results

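The genes described here are 10 of the 26096 in the deposited expression table, chosen by name: the thioredoxins Txn1 and Txn2, the thioredoxin reductases Txnrd1 and Txnrd2, the peroxiredoxins Prdx1, Prdx2, Prdx3, Prdx5 and Prdx6, and the sulfiredoxin Srxn1. Their RNA was measured by sequencing in cells labelled as wild-type mouse microglia. Microglia are macrophages that live in brain tissue. In 3 libraries the microglia had received culture medium of ferroptotic bone marrow-derived macrophages (ferroptotic medium), and in 3 libraries culture medium of normal ones (normal medium). Ferroptosis is an iron-dependent form of cell death that is driven by lipid peroxidation. The labels name neither the agent that induced it nor the length of exposure, and they do not say how or from which mice the microglia were obtained.

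The thioredoxin system passes electrons from NADPH to a thioredoxin reductase, a selenium-containing flavoenzyme, and from there to thioredoxin, a small protein with a pair of redox-active cysteines. Thioredoxin in turn reduces the peroxiredoxins, abundant peroxidases that remove hydrogen peroxide and organic peroxides, as well as methionine sulfoxide reductases and ribonucleotide reductase. Sulfiredoxin repairs some of the peroxiredoxins, but not all, when their cysteine has been over-oxidised to the sulfinic acid. Txn1, Txnrd1, Prdx1, Prdx2, Prdx6 and Srxn1 act mainly in the cytosol, Txn2, Txnrd2 and Prdx3 in mitochondria, and Prdx5 in mitochondria, peroxisomes and cytosol. In macrophages several of these genes are known targets of the oxidative stress regulator NRF2.

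With ferroptotic medium, the RNA of the repair enzyme Srxn1, the cytosolic reductase Txnrd1 and the peroxidases Prdx5 and Prdx1 rose, by 3.89-fold, 1.62-fold, 1.60-fold and 1.55-fold. Cytosolic thioredoxin, Txn1, rose by 7.60%, and Prdx2 fell by 15.7%. The mitochondrial genes Txn2, Txnrd2 and Prdx3 and the cytosolic Prdx6 did not pass the test. All 10 genes passed the filter on low values, so 5 of 10 were higher and 1 of 10 was lower at a limma adjusted p under 0.05, beside 19.7% higher and 22.8% lower among all 15597 genes tested. The median log2 fold change of the 10 was 0.17, and that of all genes tested was -0.0050. The libraries of the 2 media did not overlap for 6 of the 10 genes, against 53.7% of all genes tested, with 5 higher against 25.6% and 1 lower against 28.2%. These shares and medians are a description, because the 10 genes were chosen with earlier results of these data known. In the authors' deposited table the same 6 genes have a false discovery rate under 0.05. Values below are normalized counts, which are counts divided by a size factor of each library. Fold changes come from a fit on log2(normalized count + 1), with p-values adjusted by Benjamini-Hochberg across every gene tested.

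**Figure D1:**
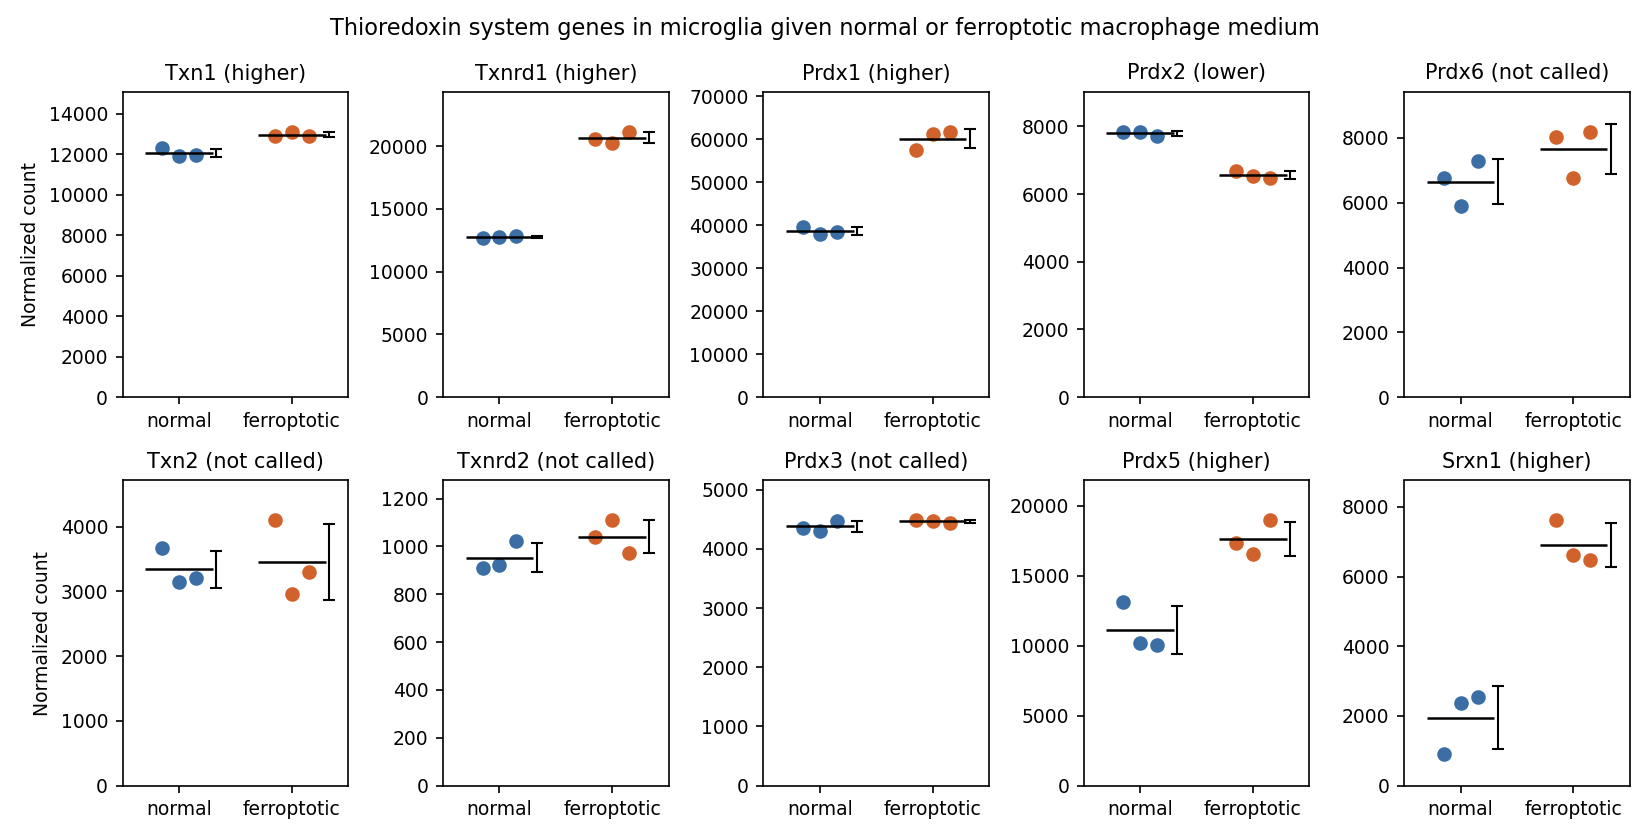
Normalized counts (vertical axes, each from 0) of the 10 genes in microglia given normal (blue) or ferroptotic (orange) medium, with 1 point per library, the mean as a line and the SD as a bar (n = 3 per group); the call at an adjusted p of 0.05 stands beside each name. Srxn1, Txnrd1, Prdx1, Prdx5 and Txn1 lie higher with ferroptotic medium in every library, Prdx2 lies lower, and the libraries overlap for the other 4 genes.

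The counts worked out from the deposited values, which may be rounded estimated counts, summed to between 39624311 and 50557794 per library over the genes in the table. No label says whether the 3 libraries of a group are separate cultures, so the p-values reflect the spread among these libraries alone, and that spread may be technical. Of 13 markers of macrophages and microglia, 12 were read from the table, and their sum lay at 191935 to 196437 normalized counts with normal medium and 166079 to 167893 with ferroptotic medium. Of 10 tested, 2 rose, Tyrobp and Fcer1g (0.19 each in log2 value), and 5 fell, among them Csf1r, the receptor that macrophages need for survival, by 0.38 and Trem2 by 1.36 on the log2 scale. P2ry12 and Tmem119, which define microglia in the brain, had at most 3.19 and 12.2 normalized counts in any library. Sall1, the remaining marker, was not among the genes of the table. The name microglia is that of the labels, and these markers do not bear it out. The sums were 880.1 to 977 against 1152 to 1218 for 5 astrocyte markers, of which Gja1 rose (769 to 1084), Aldh1l1 fell (124 to 79.9) and Slc1a3 and Slc1a2 were below 10 in each library. They were 8821 to 9383 against 6139 to 6351 for 5 oligodendrocyte markers. The sums were 5.88 to 16.6 against 55.3 to 69.6 for 2 neuron markers and 8.81 to 11.8 against 28.7 to 63.1 for 4 fibroblast markers, where Map2 and the collagen genes Col1a1, Col1a2 and Col3a1 were below 10 in each library. Their part in the results was not tested. In bulk RNA, fewer cells of a type and less RNA per cell cannot be told apart.

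Among the thioredoxins, Txn1 (ENSMUSG00000028367) encodes the cytosolic protein, which is also secreted. It had 12290, 11935 and 11969 normalized counts with normal medium and 12927, 13115 and 12901 with ferroptotic medium. The groups did not overlap, yet the difference was small, with a limma log2 fold change of 0.11, SE 0.03 and adjusted p = 0.0163. It no longer passed in 4 of 13 alternative analyses, which gave adjusted p-values of 0.0169 to 0.0940: limma without trend and robust fitting (0.0940), and the fits without normal replicate 2 (0.0639), normal replicate 3 (0.0644) or ferroptotic replicate 2 (0.0571). Txn2 (ENSMUSG00000005354), the mitochondrial thioredoxin, had 3669, 3148 and 3208 normalized counts with normal medium and 4097, 2958 and 3293 with ferroptotic medium. The highest and the lowest of these 6 values both belonged to ferroptotic medium. The log2 fold change of Txn2 was 0.036 (95% interval -0.28 to 0.36; limma adjusted p = 0.858).

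Of the reductases, which recharge thioredoxin, Txnrd1 (ENSMUSG00000020250) is the cytosolic enzyme. Its normalized counts were 12678, 12766 and 12880 with normal medium and 20586, 20259 and 21146 with ferroptotic medium. Both groups were tight, and the lowest library with ferroptotic medium lay well above the highest with normal medium (log2 fold change 0.69, SE 0.03; limma adjusted p = 3.04e-07). Eid3, a small gene that lies inside Txnrd1 on the same strand and shares no exon with it, also rose, from 70.8 ± 13.6 to 182 ± 10.8 normalized counts (mean ± SD of 3 libraries). Txnrd2 (ENSMUSG00000075704), the mitochondrial reductase, had 911, 924 and 1024 normalized counts with normal medium and 1040.0, 1109 and 972 with ferroptotic medium. These groups overlapped, and the log2 fold change was 0.13 (95% interval -0.05 to 0.30; limma adjusted p = 0.234).

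Peroxiredoxins use thioredoxin to reduce peroxides, and Prdx1 (ENSMUSG00000028691) is an abundant cytosolic one. It had 39588, 37876 and 38502 normalized counts with normal medium and 57507, 61149 and 61721 with ferroptotic medium. The 2 sets of libraries were far apart (log2 fold change 0.64, SE 0.03; limma adjusted p = 1.14e-06). Prdx2 (ENSMUSG00000005161), its closest relative, went the other way, with 7829, 7840 and 7704 normalized counts against 6678, 6549 and 6468. The fall of 0.25 on the log2 scale (SE 0.03; limma adjusted p = 0.000292) was small, and no library of one medium reached those of the other. Prdx2 shares 173 of its 3050 exon bases with Junb, which rose by 0.59, and 177 with Rnaseh2a, which fell by 0.39 on the log2 scale. Both are on the other strand, and no source used here says whether counting used strand.

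Prdx5 (ENSMUSG00000024953), a peroxidase of mitochondria and peroxisomes that also takes lipid peroxides, had 13102, 10206 and 10038 normalized counts with normal medium. With ferroptotic medium it had 17363, 16595 and 18973. Normal replicate 1 stood above the other normal libraries but below each library given ferroptotic medium (log2 fold change 0.68, SE 0.12; limma adjusted p = 0.00757). Without that library the log2 fold change was 0.80. Prdx5 shares 409 of its 2139 exon bases with Trmt112 on the other strand, which had 1174 ± 20.1 and 1027 ± 83.4 normalized counts (mean ± SD of 3 libraries) and did not pass the test.

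Prdx3 (ENSMUSG00000024997), the mitochondrial peroxiredoxin, had 4361, 4301 and 4480 normalized counts with normal medium and 4483, 4465 and 4442 with ferroptotic medium. Its log2 fold change was 0.027, with a narrow 95% interval of -0.06 to 0.11 (limma adjusted p = 0.59). Prdx6 (ENSMUSG00000026701), which uses glutathione rather than thioredoxin and reduces oxidised phospholipids, had 6761, 5906 and 7277 normalized counts with normal medium. With ferroptotic medium it had 8024, 6755 and 8187. Ferroptotic replicate 2 lay within the range of the normal libraries, and the log2 fold change of 0.20 did not pass (95% interval -0.05 to 0.46; limma adjusted p = 0.177). Without that library it was 0.29 and passed (limma adjusted p = 0.0433), and over 13 alternatives the adjusted p ranged from 0.00672 to 0.390. Copies named after these genes were scarce: Txn-ps1, Prdx6b and Prdx6-ps2 had at most 5.12 normalized counts in any library and the peroxidase pseudogene Tdpx-ps1 43.7 to 68.6. No source used here says how reads that match several copies were counted.

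Srxn1 (ENSMUSG00000032802), the enzyme that returns some over-oxidised peroxiredoxins to service, had the largest difference of the 10. Its normalized counts were 914, 2379 and 2552 with normal medium and 7617, 6628 and 6471 with ferroptotic medium. The groups did not overlap, but normal replicate 1 was far below the other normal libraries (log2 fold change 1.96, SE 0.46; limma adjusted p = 0.0296). It ranked 211 among the rises of all genes tested. In the FPKM that the authors deposited for a shorter list of 1699 genes, on which Srxn1 is the only one of the 10, its values were 6.74, 17.5 and 18.7 with normal medium and 55.6, 48.4 and 46.5 with ferroptotic medium, with the same low library.

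The 3 normal libraries spanned 1.48 on the log2 scale for Srxn1, while the median span was 0.12 for the 4610 genes with a mean within 1 log2 unit of it, and 20 of these, Srxn1 among them, spanned as much. Without normal replicate 1 the log2 fold change of Srxn1 was 1.48 (SE 0.08; limma adjusted p = 8.6e-06). The call was lost without normal replicate 2 (adjusted p = 0.0585), without ferroptotic replicate 1 (0.0933), 2 (0.0854) or 3 (0.0801), and with a replicate block (0.0891). Over its 13 alternatives the log2 fold change lay between 1.48 and 2.22.

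The genes whose profile over the 6 libraries lay closest to that of Srxn1, by Euclidean distance of centred log2 values, were Fam71f2 (distance 0.30), Mfsd4b3 (0.61) and Carmil2 (0.64). All 3 were far less abundant, and normal replicate 1 was their lowest library too: Fam71f2 had 12.7, 33.6 and 32.3 normalized counts with normal medium and 90.4, 98.2 and 94.1 with ferroptotic medium. Closest to Txnrd1 were Akna (0.034), the vitamin C transporter gene Slc23a2 (0.051) and Itpripl2 (0.063), with log2 fold changes of 0.68, 0.67 and 0.70. These distances are a description over 6 libraries of 2 groups. The genes were picked for likeness over these same libraries, so the shared low library and the like fold changes follow from the choice.

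Promoter sequences were matched to 9 of the 10 genes, with 11 start sites, from RefSeq on GRCm38.p6. The 250 bases before each start were searched for motifs of stress-responsive factors. The motifs, on both strands, were TGANTCA, the site of AP-1 factors, TGACNNNGC, a core of the antioxidant response element that NRF2 binds, and TGANNNNGC, a looser form that includes it. The windows shown are those that hold TGANTCA or TGACNNNGC. Capitals mark matches of TGANTCA and TGANNNNGC, which overlap in Srxn1 and Prdx1, and stretches annotated as exons are left out.
Srxn1, chr2:152105274-152105515, plus strand: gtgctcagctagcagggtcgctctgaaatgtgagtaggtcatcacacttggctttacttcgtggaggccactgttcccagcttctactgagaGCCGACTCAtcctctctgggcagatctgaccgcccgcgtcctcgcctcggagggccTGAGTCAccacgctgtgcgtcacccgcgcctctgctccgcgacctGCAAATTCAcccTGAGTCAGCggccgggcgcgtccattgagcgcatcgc
Prdx1, chr4:116685349-116685543, plus strand: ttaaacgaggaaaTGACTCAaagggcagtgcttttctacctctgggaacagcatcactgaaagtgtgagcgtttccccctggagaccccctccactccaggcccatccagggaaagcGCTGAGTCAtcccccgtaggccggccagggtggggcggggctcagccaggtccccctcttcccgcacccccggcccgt
Txnrd1, the second of 3 starts, chr10:82859009-82859178, plus strand: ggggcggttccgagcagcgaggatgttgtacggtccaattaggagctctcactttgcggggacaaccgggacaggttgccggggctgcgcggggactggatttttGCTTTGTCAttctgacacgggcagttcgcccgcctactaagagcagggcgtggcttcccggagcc

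In Srxn1, TGANTCA began 102 and 45 bases before the start, and the nearer match lay inside a match of TGANNNNGC. In Prdx1 it began 237 and 131 bases before the start, and the nearer one lay inside a TGACNNNGC match on the minus strand. TGANTCA was found at 2 of 11 starts, those of Srxn1 and Prdx1, and in 6.75% of all 32851 promoter windows of 250 bases. TGACNNNGC was found at 2 of 11 starts, that of Prdx1 and 1 of Txnrd1, against 10.2% of all windows. The looser TGANNNNGC, present in 35.2% of all windows, was found at 6 of 11 starts, in Srxn1, Prdx1, Txnrd1, Prdx5 and Txn2, and none of the motifs was found in the windows of Txn1, Txnrd2, Prdx2 and Prdx3. A match is a description of the sequence, and binding was not measured here.

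Related enzymes were compared within each library in 6 pairs. The difference in log2 value between Txnrd1 and Txnrd2 was 3.80, 3.79 and 3.65 with normal medium and 4.31, 4.19 and 4.44 with ferroptotic medium, so the log2 fold change of the cytosolic reductase exceeded that of the mitochondrial one by 0.57 (SE 0.09). For Prdx1 the excess was 0.88 over Prdx2 (SE 0.05), 0.61 over Prdx3 (SE 0.04) and 0.43 over Prdx6 (SE 0.13), and Prdx5 exceeded Prdx3 by 0.65 (a difference of -0.65 for Prdx3 minus Prdx5, SE 0.14). In each of these 5 pairs the libraries of the 2 media did not overlap, while 53.7% of all single genes tested did not overlap. Pairs that share Prdx1 or Prdx3 are not independent of each other. The two-sided exact permutation p was 0.1 for each of the 5, the smallest that 3 against 3 libraries allow. It was 0.12 after adjustment over the 6 pairs, so this test cannot reach 0.05 with 3 libraries a group. Txn1 and Txn2 overlapped (difference 0.070, SE 0.15; exact permutation p = 0.8).

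**Figure D2:**
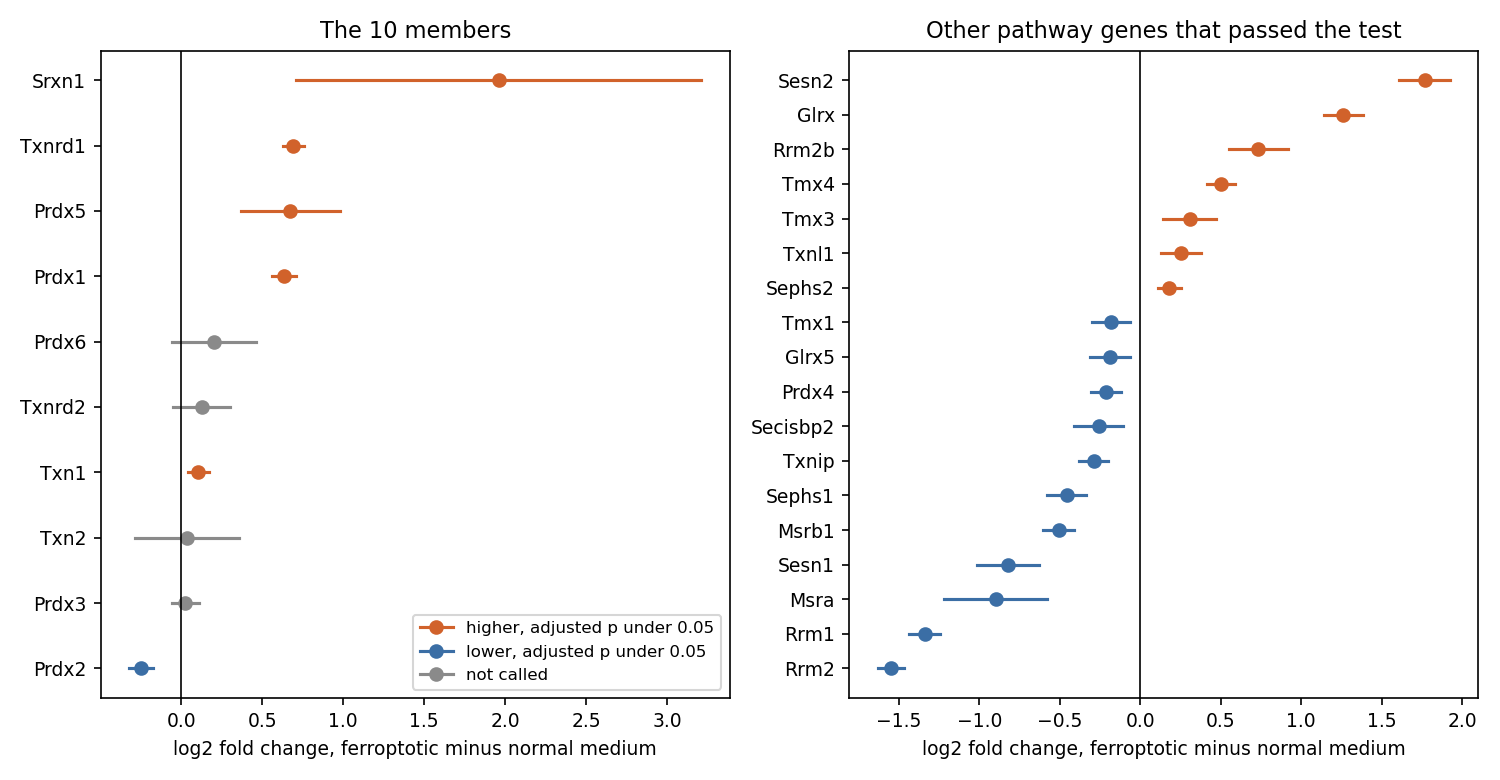
Log2 fold change (horizontal axes, ferroptotic minus normal medium) with its 95% interval from limma for the 10 genes (left) and for the 18 other pathway genes that passed the test (right); orange is higher, blue lower and grey not called. Srxn1 has the largest value and the widest interval of the 10, while Txnrd1, Prdx5 and Prdx1 lie close together between 0.64 and 0.69.

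Levels of different genes were compared as normalized counts per kilobase of exon, with exon lengths from GENCODE M21. With normal medium Prdx1 was highest at 12703 ± 285 (SD, n = 3) and Txn1 followed at 11479 ± 187, then Prdx5 at 5196 ± 805, Prdx3 at 2964 ± 61.6, Prdx2 at 2554 ± 24.7 and Txnrd1 at 1803 ± 14.3. Below them were Prdx6 at 1384 ± 144, Txn2 at 794 ± 67.7, Srxn1 at 691 ± 319 and Txnrd2 at 217 ± 14.0. Txn2 and Srxn1 were the only neighbours in this order whose libraries overlapped. With ferroptotic medium Prdx1 stood at 19759 ± 751 and Txn1 at 12351 ± 111. Txnrd1 (2916 ± 63.4) and Srxn1 (2449 ± 220.2) then lay above Prdx2 (2152 ± 34.7), which was above both with normal medium, and no neighbours in this order overlapped. With the longest transcript in place of the exon union, Prdx2 and Txnrd1 were at 4833 and 3527 with normal medium, both above Prdx3 at 2964, and with ferroptotic medium Srxn1 at 2456 lay below Prdx2 at 4072, so the order in the middle rests on the choice of length. Prdx1, Txn1 and Prdx5 were the first 3 and Txnrd2 the last by either length in both media.

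**Figure D3:**
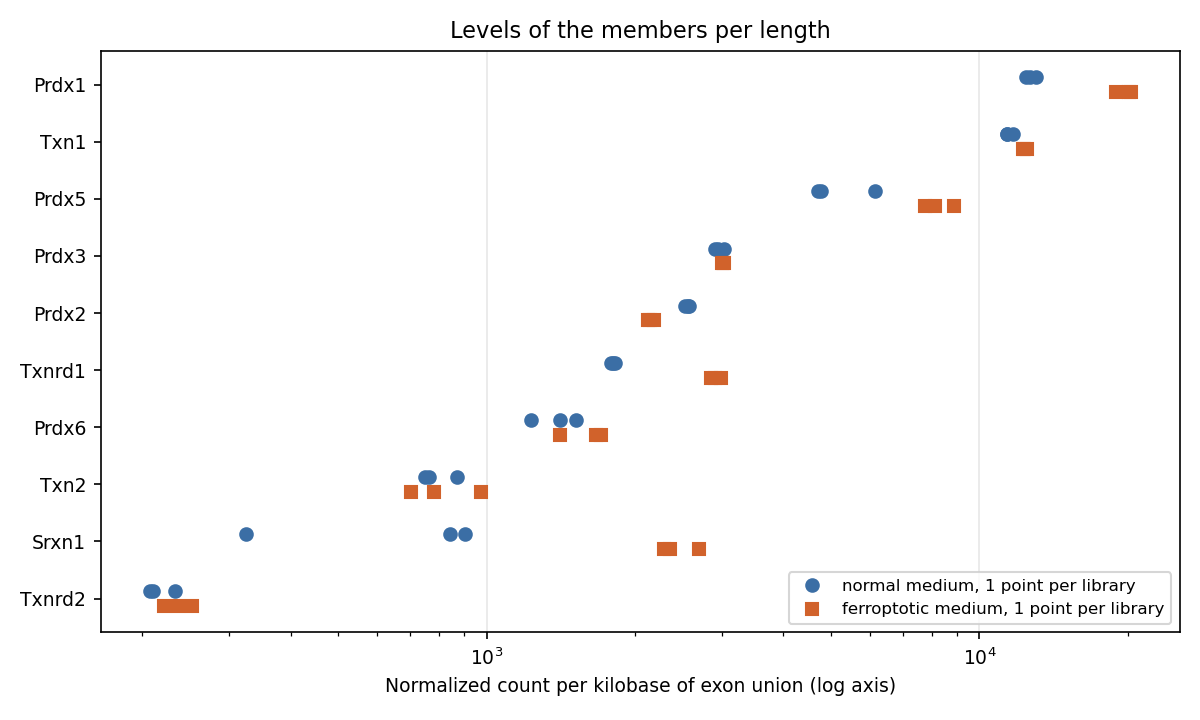
Normalized counts per kilobase of exon union (horizontal log axis) of the 10 genes, 1 point per library, for normal (blue circles) and ferroptotic (orange squares) medium. Srxn1 moves from 691 to 2449 on average, while Txn2, Txnrd2, Prdx3 and Prdx6 overlap between the media. With normal medium Srxn1 lies below Txn2 only in replicate 1 (324 against 872). It lies above Txn2 in replicates 2 (844 against 748) and 3 (905 against 762).

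Within each library, Prdx1 held 49.9%, 52.0% and 51.8% of the summed per-length level of the 5 peroxiredoxins with normal medium and 55.7%, 58.4% and 56.4% with ferroptotic medium. The share of Prdx2 was 10.3% ± 0.447 and 6.20% ± 0.284, and that of Prdx3 12.0% ± 0.571 and 8.69% ± 0.305 (mean ± SD of 3 libraries). These shares use the exon union. With the longest transcript they were 14.5% and 8.87% for Prdx2 and 8.90% and 6.58% for Prdx3, so the order of these genes rests on the length. Prdx3 itself hardly differed (log2 fold change 0.027), so its smaller share reflects the larger sum. Prdx4 is not part of the sum. The sum itself was 24802 ± 1117 and 34773 ± 1080.0 normalized counts per kilobase. The ratio of the per-length levels of Prdx1 and Srxn1 was 40.1, 14.8 and 14.0 with normal medium and 7.0, 8.55 and 8.84 with ferroptotic medium, and without the high first normal library the groups still did not overlap. Txn1 stood to Txnrd1 at 6.54, 6.30 and 6.27 with normal medium and at 4.23, 4.36 and 4.11 with ferroptotic medium. These ratios were added after the values were seen and carry no test.

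**Figure D4:**
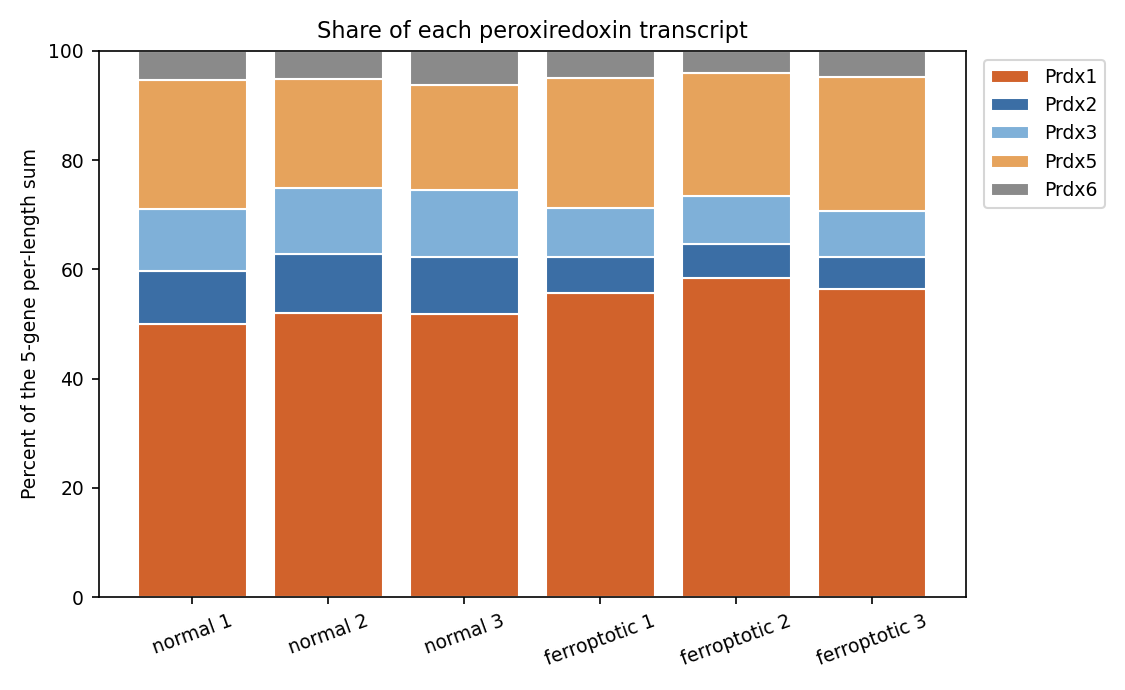
Share of each of the 5 peroxiredoxins in their summed per-length level (vertical axis, percent), 1 bar per library. Prdx1 takes 49.9% to 52.0% with normal medium and 55.7% to 58.4% with ferroptotic medium, and the Prdx2 and Prdx3 bands are thinner with ferroptotic medium.

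Of 38 further genes around the thioredoxin system, 37 were tested, and 7 rose and 11 fell, so 48.6% were called against 42.5% of all genes tested. Their median log2 fold change was -0.15. Of the other 5 genes of the system itself, Txnip, the inhibitor that binds reduced thioredoxin, fell from 10737 ± 453 to 8774 ± 213 normalized counts (log2 fold change -0.29; limma adjusted p = 0.000393), and Prdx4, the peroxiredoxin of the endoplasmic reticulum, fell from 4269 ± 146 to 3681 ± 49.0 (mean ± SD of 3 libraries). The thioredoxin-like Txnl1 rose by 0.25 on the log2 scale. Txnrd3, the reductase best known from testis, had 167 ± 12.6 and 166 ± 20.9 normalized counts, and nucleoredoxin, Nxn, had 139 ± 26.4 and 117 ± 10.3, and neither passed.

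Glutaredoxins are small redox proteins that glutathione recharges, and 1 of 4 rose and 1 fell, close to the 19.7% higher and 22.8% lower among all genes tested. Glrx, the cytosolic one, had 8374, 8226 and 8767 normalized counts with normal medium and 18929, 21855 and 20085 with ferroptotic medium (log2 fold change 1.26, SE 0.05; limma adjusted p = 4.31e-07). Of the 10 genes only Srxn1 had a larger log2 fold change. Glrx5, which serves iron-sulfur cluster assembly in mitochondria, fell by 0.19 on the log2 scale, a call that 7 of its 13 alternatives lost.

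Among 7 genes for thioredoxin-dependent reductases or their subunits, 4 fell and 1 rose, beside 22.8% lower and 19.7% higher among all genes tested. Rrm1 and Rrm2, the subunits of the ribonucleotide reductase of dividing cells, fell from 15713 ± 134 to 6208 ± 347 and from 13411 ± 297 to 4577 ± 114 normalized counts (mean ± SD of 3 libraries). Rrm2b, the subunit used outside S phase, rose from 870 ± 85.6 to 1444 ± 43.5. In the same libraries all 5 markers of cycling cells fell, from a sum of 80414 to 83436 normalized counts to 23552 to 25423, and Mki67 fell by 1.82 on the log2 scale. Their part in these differences was not tested. The methionine sulfoxide reductases Msra (-0.90) and Msrb1 (-0.51), which repair oxidised methionine, also fell in log2 value, whereas Msrb2 (-0.34, limma adjusted p = 0.0747) and Msrb3 (-0.36, limma adjusted p = 0.405) did not pass.

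Sestrins are stress-induced proteins that were described with peroxiredoxin repair and restrain mTORC1. Sesn2 rose from 1607 ± 148 to 5457 ± 161 normalized counts (log2 fold change 1.77) and Sesn1 fell from 1198 ± 25.9 to 680.0 ± 68.1 (-0.82), while Sesn3 was below the filter at 3.19 to 12.7 normalized counts. Of 13 proteins with a thioredoxin fold, the membrane proteins Tmx4 (0.50) and Tmx3 (0.31) rose and Tmx1 (-0.18) fell in log2 value. These are 23.1% of the 13, a smaller share than the 42.5% called among all genes tested. Txndc5, a disulfide isomerase, had 7348, 7165 and 4259 normalized counts with ferroptotic medium against 9072, 8669 and 9039, and did not pass, with 1 low library (limma adjusted p = 0.142). Of 6 genes listed around selenocysteine, the residue both reductases need, the selenophosphate synthetase Sephs2 (0.18) rose. Sephs1 (-0.46) and Secisbp2 (-0.26), the protein that binds the selenocysteine insertion element, fell. Of these 6 genes 50% were called, beside 42.5% of all genes tested.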

How the data were processed

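The authors deposited a table of log2 values per library with group means, fold changes, p-values and false discovery rates, and a shorter table that adds FPKM. Tools named in the submitters' processing notes, without a role, are HISAT2 2.1.0, fastp 0.17.1, R 3.4.3 and DESeq2 1.18.1. Genome build, annotation, counter and strand setting: not given in the sources used here. Log2 values as the authors deposited them behave as log2(count / size factor + 1): undoing the log left 100% of values at a whole multiple (tolerance 0.01) of 1 step per library, which gave the totals per library (possibly of rounded estimated counts). The authors' deposited p-values enter only as a count of genes under a false discovery rate of 0.05. limma 3.58.1 (trend, robust, two-sided) in R 4.3.3 was fitted to the log2 values of 15597 genes, with medium as the only term. These genes reached 10 normalized counts in 3 or more libraries. A run on simulated counts, with few changed genes and the same dispersion for all, does not show how the fit performs on these data. Exon lengths came from GENCODE M21, which held 26051 of the 26096 gene IDs. Pairs of libraries of a group had a chi-square of 16.69 to 23.48 per degree of freedom over genes, where counting error alone gives 1, so none is a copy. The alternatives were other filters, quantile normalization, a pseudocount of 8, limma-voom, limma without trend and robust fitting, a replicate block, and each library left out. The genes and the lists were chosen with earlier results of these data known. Named genes were the 10, called pathway genes with an absolute log2 fold change of at least 0.5, pathway lists with 5 or fewer genes counted, the 3 nearest profiles of Srxn1 and Txnrd1, and marker checks. Txndc5, overlapping genes, gene copies and other markers were named after their values were seen.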

Additional observations from a re-analysis of the deposited data

How the results depend on the processing

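With 1 library left out, 3 to 5 of the 10 genes were called higher, 3 without normal replicate 2, when Srxn1 and Txn1 missed the threshold, and 1 was called lower. Txnrd1, Prdx1, Prdx5 and Prdx2 kept direction and call in all 13 alternatives. Values that had not passed changed sign when 1 library was left out: Txn2 ranged from -0.095 to 0.14 in log2 fold change, Txnrd3 from -0.10 to 0.072, and the difference Txn1 minus Txn2 from -0.042 to 0.20. Called pathway genes kept their direction, and Glrx5 lost its call in 7 and Tmx1 in 4 of 13 alternatives. The longest transcript moved 14 of the per-length levels by more than 1 SD. Over the genes tested, libraries with equal replicate numbers showed little correlation of their deviations from the group mean (0.0086, -0.020 and -0.039). These values cannot settle whether the libraries were paired. With a replicate block 5 genes were higher and 1 lower, with Prdx6 passing (limma adjusted p = 0.00672) and Srxn1 not (0.0891).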
